A study of Mus musculus with 6 samples.

Results

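The genes described here are 9 kinases, adaptors and effectors that act directly beneath the T cell antigen receptor (TCR), namely Zap70, Syk, Lck, Fyn, Txk, Lat, Lcp2, Plcg1 and Vav1. They were chosen by name, and all 9 were found among the 48397 rows of the count table. Their mRNA was compared in stage 0 invariant natural killer T (iNKT) cells, with 3 libraries of each genotype, BALB/c and SKG. BALB/c mice were wild type. SKG mice share the BALB/c background and carry a germline hypomorphic mutation of Zap70, which weakens the kinase's signaling without deleting the gene, so a count of Zap70 mRNA does not show it. Mice of both genotypes were 8 to 10 weeks old. Cells were sorted from thymus as binding the PBS57-CD1d tetramer, positive for CD24 and CD69, negative for CD44 and CD8 and low or negative for CD4. Each library came from about 1000 cells of 3 pooled mice, so a replicate is a pool of animals and differences between single mice are not seen. The comparison asks whether the partners of the weakened kinase, its relative Syk among them, differ in mRNA at this first stage.

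When the TCR binds its ligand, the Src-family kinases Lck and Fyn phosphorylate the CD3 and zeta chains. Zap70 docks on these phosphorylated chains through its paired SH2 domains, is activated by Lck, and phosphorylates the adaptors Lat and SLP-76, the latter encoded by Lcp2. On this scaffold gather the phospholipase PLCγ1, the exchange factor Vav1 and Tec-family kinases such as Txk, which leads to calcium flux, Ras and cytoskeletal responses. Syk, the other member of Zap70's family, is best known from B and myeloid cells and is also present in early thymocytes. iNKT cells are selected in the thymus by this pathway together with SLAM-family receptors that signal through Fyn.

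The libraries held between 37176544 and 43115544 reads counted on genes, and between 10835 and 14791 genes with at least 10 reads. Of 12312 genes that passed edgeR's filter on low counts, 0 (0%) were called by edgeR's quasi-likelihood test at an adjusted p under 0.1 with a fold change of 1.5 or more, and 671 (5.45%) had an unadjusted p under 0.05. For 1710 of these genes (13.9%) every library of one genotype was above every library of the other. DESeq2 on the same counts called 1.52% of 24420 genes without shrinkage of the fold changes and 0.946% with it. All 10 markers listed for stage 0 iNKT cells had reads, with summed levels of 11320 to 13790 CPM (read counts scaled to a common library total) in BALB/c and 10020 to 11590 in SKG. The largest parts were Itm2a, at 3578 to 6515 CPM, and Slamf6, at 2450 to 3631 CPM. Cd24a, whose product was used in the sort, was at 7.31 to 90.7 CPM. Cd69, also a sort marker, was lower throughout SKG. Its counts ranged from 6120 to 9024 there, against 12858 to 16010 for BALB/c. Egr2, of the same list, was likewise apart, at 17840 to 37152 counts for SKG against 40699 to 63786 for BALB/c. Cd24a and Slamf6 counts overlapped between the genotypes. The summed level therefore does not show that each stage 0 marker was alike in both. Traj18 had 43 to 88 reads per library, and Trav11 had fewer than 10 in each. The transcripts listed for double-positive thymocytes had summed levels of 518, 317 and 176 CPM in BALB/c replicates 1 to 3. In SKG replicates 1 to 3 these sums were 186, 316 and 381 CPM. Cd8a held 922 to 4985 reads per library, the most in BALB/c replicate 1, although the sort removed cells with surface CD8. Summed erythroid transcripts were at 69.7 CPM in BALB/c replicate 1 and at 0.027 to 1.57 CPM in the other libraries. In pooled cells, fewer cells that express a gene and less of its RNA per cell cannot be told apart.

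All 9 genes passed the filter on low counts, and edgeR called 0 of them (percent called over all genes, 0%). At an unadjusted p under 0.05 there was 1 gene, Plcg1, which was also the 1 gene of the 9 without overlap between the genotypes, against 5.45% and 13.9% of all genes tested. Fitted fold changes were above 1 in SKG for 4 genes and below 1 for 5. Their median was -0.02 on the log2 scale, the same to 2 decimals as the median of all genes tested, -0.02. Adjusted p-values from edgeR ran from 0.686 to 0.999 over the 9 genes.

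The start regions of 3 genes are printed because the comparisons turn on them. Zap70 carries the mutation, Syk is its sparse relative, and Plcg1 had the lowest p of the 9. Each sequence runs 5′ to 3′ on the strand of the gene, from 250 bases before its most upstream RefSeq start to 50 bases from that start on. Capitals mark the letters GGAAG or CTTCC, a narrower form of the core bound by ETS factors, read on both strands. Other forms of that core were not counted and stay in lower case. They are RefSeq sequences of the build GRCm38.p6, at chr1:36761548-36761847 for Zap70, chr13:52583187-52583486 for Syk and chr2:160731060-160731359 for Plcg1, all 3 on the plus strand.
Zap70: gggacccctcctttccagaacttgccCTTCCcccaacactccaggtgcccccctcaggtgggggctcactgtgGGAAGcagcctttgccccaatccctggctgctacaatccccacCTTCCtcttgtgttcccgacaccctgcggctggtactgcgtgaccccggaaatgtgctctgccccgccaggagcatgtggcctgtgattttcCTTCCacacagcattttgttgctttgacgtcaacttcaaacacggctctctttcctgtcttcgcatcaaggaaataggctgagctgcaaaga
Syk: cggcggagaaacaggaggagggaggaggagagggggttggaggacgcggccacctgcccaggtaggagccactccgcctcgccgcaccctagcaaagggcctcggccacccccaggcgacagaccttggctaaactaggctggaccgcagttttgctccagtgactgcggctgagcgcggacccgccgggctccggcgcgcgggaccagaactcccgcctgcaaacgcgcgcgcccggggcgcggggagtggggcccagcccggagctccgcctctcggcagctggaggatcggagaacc
Plcg1: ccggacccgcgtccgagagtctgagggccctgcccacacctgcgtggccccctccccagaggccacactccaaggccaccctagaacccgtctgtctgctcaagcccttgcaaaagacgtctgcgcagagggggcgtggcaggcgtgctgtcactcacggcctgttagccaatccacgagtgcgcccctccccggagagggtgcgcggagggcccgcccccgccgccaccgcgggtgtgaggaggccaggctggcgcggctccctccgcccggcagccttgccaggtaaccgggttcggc
The Zap70 window held 4 such matches, and those of Syk and Plcg1 held 0. Of 32851 windows of the same length in the table, 71.4% held at least 1. The windows of Syk and Plcg1 both had a GC content of 72.0%, against 57.3% for Zap70. For the other 6 genes the number of GGAAG or CTTCC matches was 3 for Lck, Lat and Lcp2, 2 for Vav1, 1 for Txk and 0 for Fyn. The letters TGTGGT, bound by Runx factors, were found on either strand in the windows of Lck and Lat, with 1 match each, and in 16.8% of all windows. GGGCGG, the GC box, was matched on either strand 2 times for Plcg1 and 1 time each for Fyn and Vav1, and in 35.7% of all windows. These matches describe the letters only.

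Zap70, on chromosome 1 of GRCm38 from 36761798 to 36782818, was expressed in every library of both genotypes. Its reads numbered 20537, 17495 and 16887 in BALB/c replicates 1 to 3 and 12983, 13150 and 14773 in SKG replicates 1 to 3. Scaled to the TMM-normalized library total these were 498, 472 and 374 CPM in BALB/c and 322, 338 and 408.5 CPM in SKG. SKG replicate 3 lay above BALB/c replicate 3, so the genotypes overlapped by these libraries, while the other 2 SKG libraries were below every BALB/c library. The fitted fold change, SKG over BALB/c, was 0.796 with a 95% interval from 0.600 to 1.06 (log2 -0.33, standard error 0.17, edgeR adjusted p = 0.953). The lower mean in SKG, 356 ± 45.9 against 448 ± 65.4 CPM (SD, n = 3), did not pass the test, and with any 1 library left out the log2 fold change stayed between -0.44 and -0.24.

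Syk was sparse and differed from library to library far more than between genotypes. It lies on chromosome 13 from 52583173 to 52648792. BALB/c replicates 1 to 3 held 3, 456 and 174 of its reads (0.0727, 12.3 and 3.85 CPM), and SKG replicates 1 to 3 held 12, 567 and 0 (0.298, 14.6 and 0 CPM). Replicate 2 was the highest library of each genotype and the lowest held 3 reads or none, so the groups overlapped fully. In SKG replicate 3 the absence of reads allows a level of up to 0.083 CPM, the equivalent of 3 reads, counting error only. The fitted fold change was 0.918 with a 95% interval from 0.0166 to 50.7 (log2 -0.12, standard error 2.42, edgeR adjusted p = 0.999). An increase of Syk mRNA in SKG cells was not detectable in these libraries, and the interval leaves room for a large one in either direction. The direction depended on which library was left out. Without BALB/c replicate 2 the log2 fold change became 1.33, without SKG replicate 1 it was 0.45, without SKG replicate 3 it was 0.48, and without SKG replicate 2 it was -5.14.

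Syk is abundant in B and myeloid cells, so the levels of their markers are given beside it. The summed level of 9 B cell markers was 6.86, 1.89 and 3.43 CPM in BALB/c and 3.87, 3.16 and 8.38 CPM in SKG, with Cd22 and Fcrla at 0 in every library. The highest of these sums, in SKG replicate 3, came from Cd79b alone, with 303 reads. For 9 myeloid markers the sum was 217, 95.8 and 98.5 CPM in BALB/c and 70.0, 78.4 and 274 CPM in SKG, and Cd14 was at 0 throughout. Cst3, with 2786 to 6723 reads, and Lyz2, with 5 to 3873, had the most reads of this list in total. The sums of both lists were highest in SKG replicate 3, followed by BALB/c replicate 1. Genes detected at 10 or more reads were fewest in SKG replicate 3, at 10835, and in BALB/c replicate 1, at 11415, the libraries with 0 and 3 Syk reads. They were most numerous in SKG replicate 1, at 14791, where Syk had 12 reads, and numbered 11830 to 14339 in the 3 libraries with 174 to 567 Syk reads. The part of these cells, and of the number of genes detected, in the Syk counts was not tested.

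Read per length, Zap70 far outweighed Syk in each library. Levels of different genes were compared as CPM per kilobase of exon. Of the summed level of Syk and Zap70, Syk made up 0.00467%, 0.826% and 0.328% in BALB/c and 0.0295%, 1.36% and 0% in SKG. Mean shares of 0.386% ± 0.414 (SD, n = 3) for BALB/c and 0.463% ± 0.776 (SD, n = 3) for SKG lay within the spread of either genotype (exact two-sided permutation test, p = 0.9, adjusted p = 0.9 over 3 pairs). With 3 libraries against 3, this test cannot go below 0.1. The highest share, in SKG replicate 2, was 1.36%, so Zap70 was the predominant mRNA of its family in both genotypes.

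**Figure D1:**
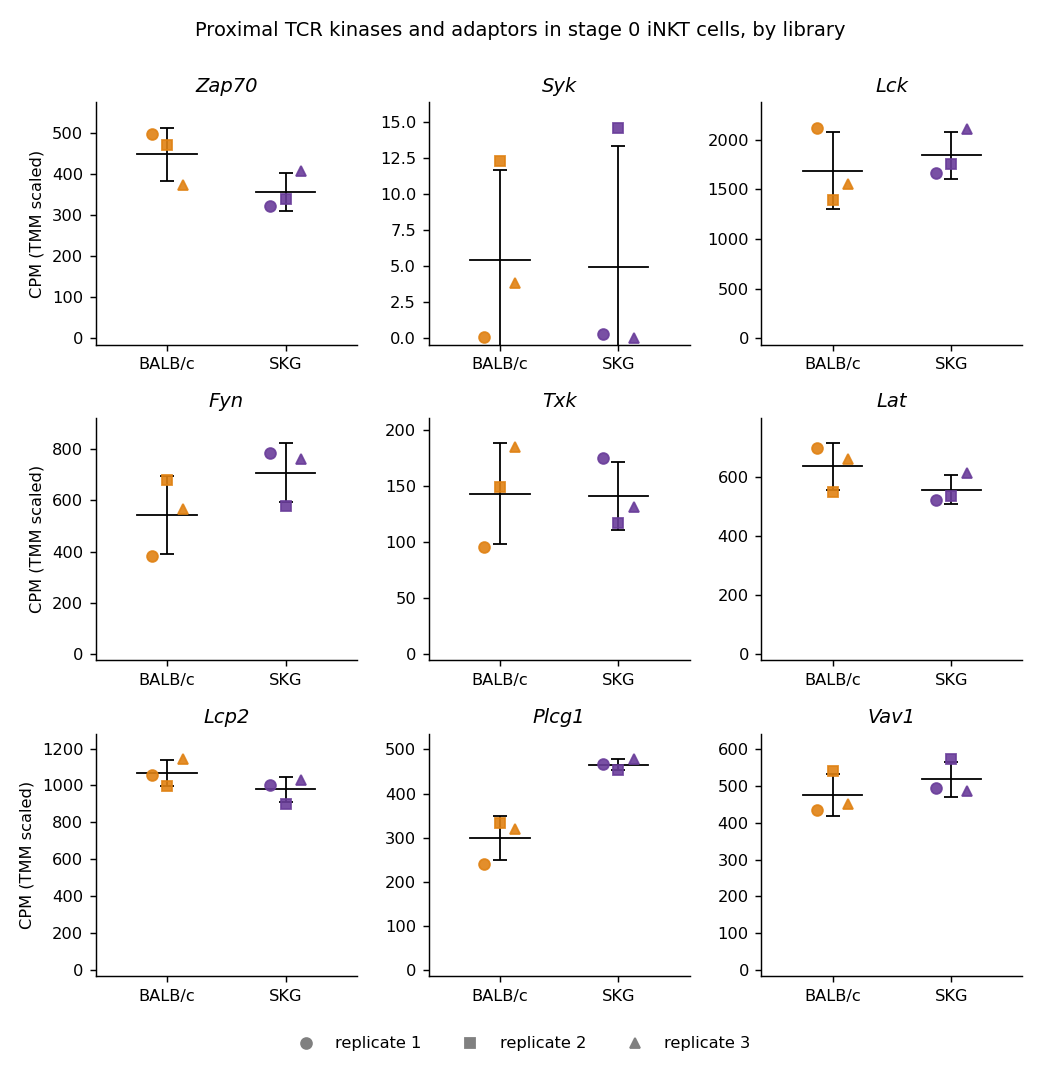
Level of each gene in CPM (TMM scaled, linear axes, a scale per gene) in the 3 BALB/c (orange) and 3 SKG (purple) libraries, with symbols for replicates and black lines for the mean ± SD, which for Syk runs below the axis. Only for Plcg1 are the genotypes apart, at 241 to 333 CPM against 453 to 477, and Syk runs from 0 to 14.6 CPM.

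Among the Src-family kinases, Lck was the most abundant gene of the 9 and Fyn was the one that varied more between libraries. Lck, on chromosome 4 from 129548344 to 129573641, was at 2122, 1390 and 1558 CPM in BALB/c and 1666, 1755 and 2109 CPM in SKG. The highest library of each genotype stood at nearly the same level. Its fold change was 1.09 with a 95% interval from 0.794 to 1.499 (log2 0.13, standard error 0.19, edgeR adjusted p = 0.991). Without BALB/c replicate 2, the lowest library, the log2 fold change was -0.01, so its sign rested on that library. Fyn, the kinase that also serves SLAM-family signals in iNKT precursors, lies on chromosome 10 from 39368855 to 39565381. It was at 381, 681 and 566 CPM in BALB/c and 785, 576 and 762 CPM in SKG. SKG replicates 1 and 3 were above every BALB/c library, and SKG replicate 2 lay within their range. Its fold change was 1.30 with a 95% interval from 0.871 to 1.95 (log2 0.38, standard error 0.24, edgeR adjusted p = 0.982).

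Fyn took 10.8%, 24.7% and 19.6% of the summed length-scaled level of Fyn and Lck in BALB/c and 24.0%, 18.1% and 19.5% in SKG. BALB/c replicate 1 stood low and the other libraries of both genotypes lay together. The means were 18.4% ± 7.07 (SD, n = 3) and 20.5% ± 3.11 (SD, n = 3), which did not differ beyond the spread (exact two-sided permutation test, p = 0.9, adjusted p = 0.9 over 3 pairs). Without BALB/c replicate 1 the difference turned from 2.17 to -1.64 percentage points.

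**Figure D2:**
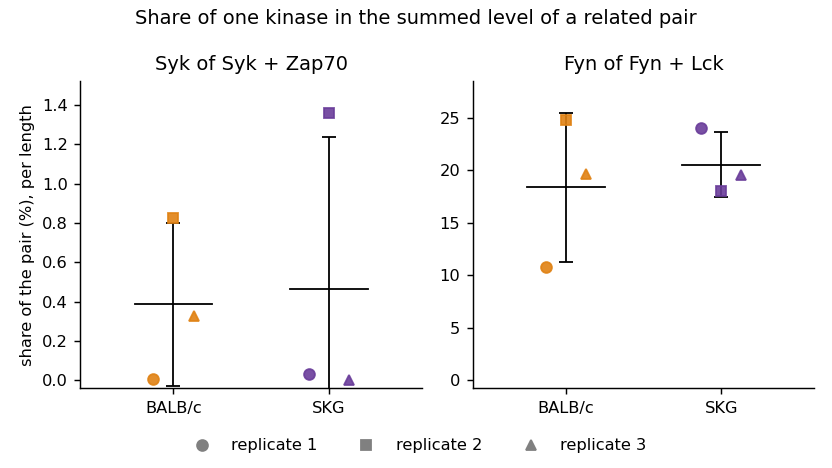
Share in percent of one kinase in the summed level per length of a related pair, by library (orange BALB/c, purple SKG, symbols for replicates, black lines for the mean ± SD, which runs below the axis for Syk). Syk stays at or under 1.36% of Syk and Zap70, and the Fyn shares of Fyn and Lck overlap, at 10.8% to 24.7% in BALB/c and 18.1% to 24.0% in SKG.

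Txk, a Tec-family kinase that can phosphorylate PLCγ1, lies on chromosome 5 from 72695978 to 72752777. It was at 95.4, 149 and 185 CPM in BALB/c and 175, 117 and 131 CPM in SKG, so every SKG library lay inside the BALB/c range. The fold change was 0.986 with a 95% interval from 0.607 to 1.603 (log2 -0.02, standard error 0.29, edgeR adjusted p = 0.999), and its sign changed with the scaling. With any 1 library left out its log2 fold change ran from -0.24 to 0.21.

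Both scaffold adaptors were abundant and even. Lat, the membrane adaptor that Zap70 phosphorylates, is encoded on chromosome 7 from 126363824 to 126369570. It was at 696, 547 and 661 CPM in BALB/c and 522, 534 and 612 CPM in SKG. BALB/c replicate 2 fell among the SKG libraries, and the other 2 BALB/c libraries were above all of them. The fold change was 0.876 with a 95% interval from 0.687 to 1.117 (log2 -0.19, standard error 0.15, edgeR adjusted p = 0.991). Lcp2, which encodes the cytosolic adaptor SLP-76, is found on chromosome 11 from 34046920 to 34092295. Its level was 1059, 999.5 and 1142 CPM in BALB/c and 1003, 902 and 1030 CPM in SKG. These ranges overlapped as well, and the fold change was 0.917 with a 95% interval from 0.752 to 1.118 (log2 -0.12, standard error 0.12, edgeR adjusted p = 0.991). Lcp2 had the narrowest spread of the 9 genes, with a coefficient of variation within a genotype of 6.80%.

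Plcg1, which encodes PLCγ1, the phospholipase that generates the second messengers for calcium and diacylglycerol signaling, was the member with the clearest difference. It lies on chromosome 2 from 160731300 to 160775760. BALB/c replicates 1 to 3 held 9944, 12361 and 14459 of its reads (241, 333 and 320.1 CPM), and SKG replicates 1 to 3 held 18783, 17615 and 17261 (466, 453 and 477 CPM). All 3 SKG libraries stood close together and above each BALB/c library, under TMM, under DESeq2-type size factors and under library size alone. The means were 298 ± 49.9 CPM (SD, n = 3) in BALB/c and 466 ± 12.1 CPM (SD, n = 3) in SKG, with a fold change of 1.56 and a 95% interval from 1.19 to 2.04 (log2 0.64, standard error 0.16). In edgeR the unadjusted p was 0.00605 and the adjusted p over all genes 0.686, so the gene was not called. DESeq2 without shrinkage called it (log2 0.66, adjusted p = 0.0929), with shrunken fold changes it did not (log2 0.65, adjusted p = 0.127), and neither did limma-voom (log2 0.66, adjusted p = 0.576). Leaving out any 1 library kept its log2 fold change between 0.52 and 0.72. The lowest value, 0.52, came without BALB/c replicate 1, which follows from its Plcg1 level of 241 CPM, the lowest of all libraries. Summed double-positive thymocyte transcripts were highest in the same library. The part of such cells in the difference was not tested. Of the exon bases of Plcg1, 6.68% overlap exons of Zhx3 or Gm27206, and reads there cannot be assigned to a strand. Zhx3 had 742 reads in BALB/c replicate 1, where Plcg1 was lowest, and 2166 to 3643 in the others, and Gm27206 had 0 to 156. Their part in the Plcg1 difference was not tested.

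Vav1, an exchange factor that binds SLP-76, lies on chromosome 17 from 57279100 to 57328031. It was at 434, 540 and 450.1 CPM in BALB/c and 495, 572 and 487 CPM in SKG. BALB/c replicate 2 was higher than 2 of the SKG libraries. The fold change was 1.09 with a 95% interval from 0.856 to 1.39 (log2 0.13, standard error 0.15, edgeR adjusted p = 0.991).

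**Figure D3:**
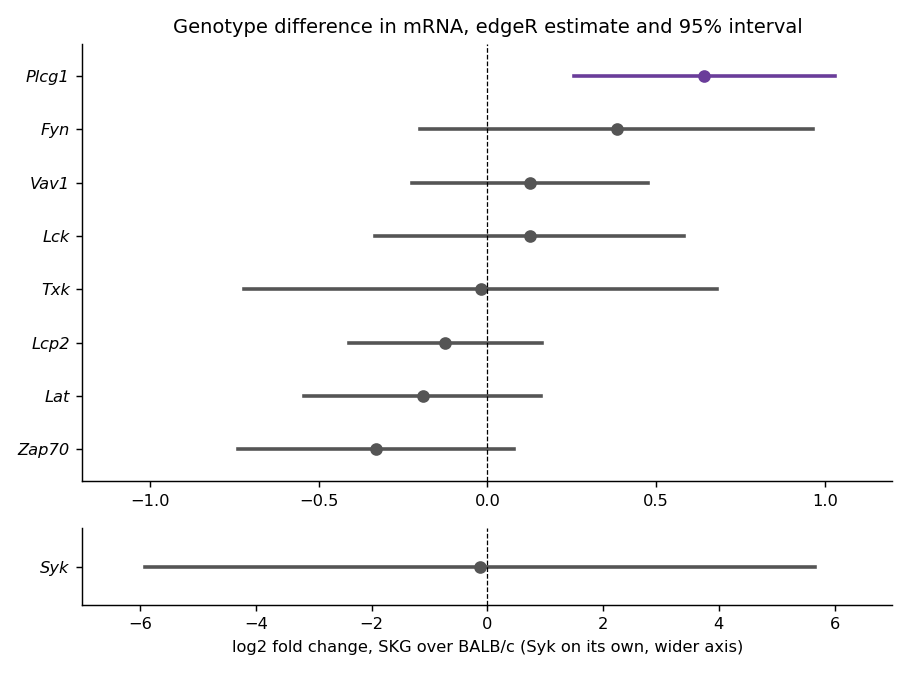
Fitted log2 fold change (points) and 95% interval (lines) of each gene, SKG over BALB/c, from edgeR, with Syk on a wider axis of its own below. The interval of Plcg1, from 0.26 to 1.03, is the only one of the 9 that does not include 0, and that of Syk runs from -5.91 to 5.66.

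The order of levels per kilobase of exon placed Lck first, at 603 ± 101 CPM per kilobase (SD, n = 6 libraries). Lcp2 followed at 229 ± 17.7 and Lat at 215 ± 26.2, then Fyn at 143 ± 34.4, Vav1 at 135 ± 14.3 and Zap70 at 134 ± 23.8. Below them came Plcg1 at 48.6 ± 12.4, Txk at 13.0 ± 3.12 and Syk at 0.554 ± 0.705. Neighbours in this order were compared within libraries by an exact two-sided sign-flip permutation test, which with 6 libraries cannot go below 0.031. The order was taken from these same 6 libraries, so the p-values are no independent support for it. Lck was above Lcp2, Lat above Fyn, Zap70 above Plcg1, Plcg1 above Txk and Txk above Syk in 6 of 6 libraries each (exact p = 0.031, adjusted p = 0.05 over 8 pairs). Lcp2 and Lat did not differ beyond their spread (exact p = 0.125, adjusted p = 0.167), nor did Fyn and Vav1 (exact p = 0.71875, adjusted p = 0.821) or Vav1 and Zap70 (exact p = 1.0, adjusted p = 1.0). Among 11942 tested genes with a known exon length, Lck stood above 99.8% and Zap70 above 97.6%, whereas Plcg1 stood above 89.8%, Txk above 64.8% and Syk above 8.66%.

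**Figure D4:**
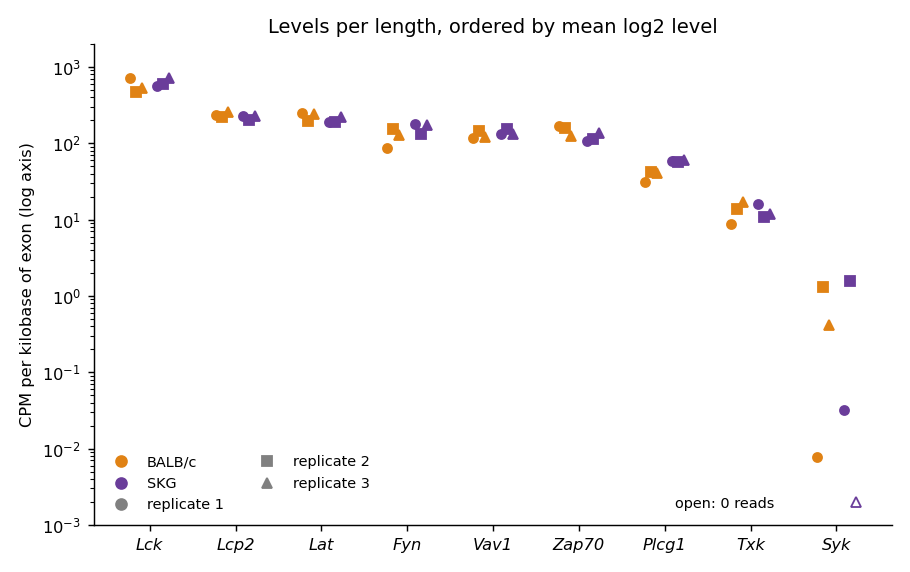
Level of each gene in CPM per kilobase of exon (log axis) in the 6 libraries, ordered by the mean of the log2 level, with colors for genotype and symbols for replicates. The library with 0 Syk reads is drawn as an open symbol at an arbitrary low position, and levels run from 725 CPM per kilobase for Lck down to 0 for Syk.

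Apart from Syk, these genes varied little between libraries of the same genotype. Their coefficients of variation within a genotype, averaged over both, lay between 6.80% for Lcp2 and 26.4% for Txk, against a median of 39.1% over all genes tested, which are on the whole less abundant. That of Syk was 142%. In the edgeR fit the dispersions of the 8 other genes corresponded to coefficients of variation from 15.1% for Lcp2 to 28.4% for Txk. The trend at their abundance corresponded to 21.9% for Lck up to 30.0% for Txk. For Syk the dispersion corresponded to a coefficient of variation of 190.0%, above the 143% of the trend at its level, where genes in general were uneven. Summed over the 9 genes, the level was 5123 to 6016 CPM per library.

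**Figure D5:**
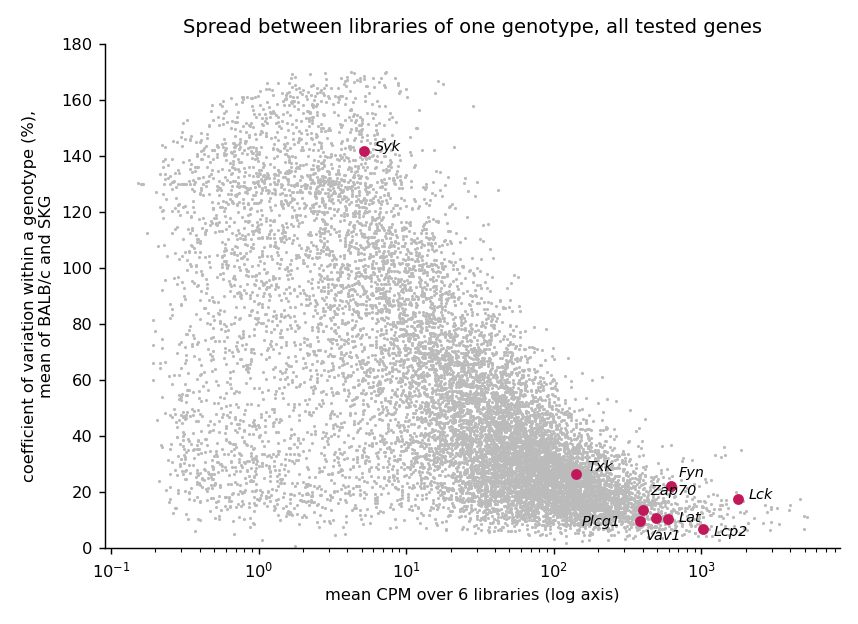
Coefficient of variation between libraries of the same genotype in percent (mean of BALB/c and SKG) against the mean CPM (log axis) for tested genes with reads in both genotypes (grey), with the 9 genes in red. The spread of all genes widens towards low levels, where Syk sits at 142%, and the other members lie between 6.80% and 26.4%.

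The genes whose pattern over the 6 libraries came closest to that of Zap70 and of Syk were found by the root mean square difference of centred log2 CPM, where 0 is an identical pattern. For Zap70, among 8377 genes with a mean of at least 10 CPM, these were Actb at 0.0563, Arhgdia at 0.0580 and Aldoa at 0.0612. Actb was at 3318, 3131 and 2614 CPM in BALB/c and 2034, 2255 and 2909 in SKG, lower in the same 2 SKG libraries as Zap70. For Syk the closest of 8378 genes were Zfp873 at 1.04, Spidr at 1.09 and Wdr59 at 1.18. This distance grows with a gene's own spread, which was far wider for Syk, so its values cannot be set against those of Zap70. Reads of Zfp873 numbered 35, 826 and 1020 in BALB/c against 9, 1689 and 1 in SKG, so it was scarce in the same 3 libraries as Syk.

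Other genes of the pathway were taken from 3 lists. Of 49 listed genes 40 passed the filter on low counts, and edgeR called 0 of them (0% of all genes tested). At an unadjusted p under 0.05 there were 3 that were higher in SKG and 1 that was higher in BALB/c, or 4 of 40, against 3.07% and 2.38% of all genes tested in those directions. The genotypes were fully apart in 5 genes with higher levels in SKG and 1 with higher levels in BALB/c, against 6.77% and 7.12% of all genes tested. The median log2 fold change of the 40 genes was 0.25, beside -0.02 over all genes.

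Of 23 other adaptors and effectors 20 were tested, and all 3 genes higher in SKG at an unadjusted p under 0.05 were among them. Rasgrp1, the diacylglycerol-dependent activator of Ras that works downstream of PLCγ1, was counted 18826, 32681 and 41978 times in BALB/c and 61330, 71045 and 50561 times in SKG. Each SKG library was above each BALB/c library, at means of 756 ± 260.2 and 1583 ± 221 CPM (SD, n = 3; log2 fold change 1.07, standard error 0.28, edgeR adjusted p = 0.686). Fyb, which encodes the adaptor ADAP that binds SLP-76, was at 139 ± 11.1 and 215 ± 34.5 CPM (SD, n = 3; log2 fold change 0.64, standard error 0.18, edgeR adjusted p = 0.734). Prkcq, which encodes the diacylglycerol-responsive kinase PKCθ, was counted 9069, 10624 and 14230 times in BALB/c and 14889, 16093 and 16163 times in SKG (log2 fold change 0.58, standard error 0.18, edgeR adjusted p = 0.830). For both genes all 3 SKG libraries exceeded the highest of BALB/c. Shb had 3 reads in 1 library and Clnk had none in any.

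The last list held 16 genes of the receptor and of regulators of the kinases, namely CD3 and zeta chains, the coreceptor Cd4, phosphatases, the kinase Csk, ubiquitin ligases and adaptors. All were tested and 1 had an unadjusted p under 0.05. This was Sla, which encodes SLAP, an adaptor that promotes turnover of the TCR complex. It was counted 26914, 25770 and 27109 times in BALB/c and 15003, 21847 and 13192 times in SKG. The BALB/c libraries stood close together above all SKG libraries, at means of 649 ± 47.4 and 433 ± 112 CPM (SD, n = 3; log2 fold change -0.58, standard error 0.20, edgeR adjusted p = 0.834). The median log2 fold change of this list was 0.10. Of 10 other Src- and Tec-family kinases 4 were tested and 0 had an unadjusted p under 0.05. Yes1, with 2 reads in 1 BALB/c library, had none in the other 5, and Bmx had none in any.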

How the data were processed

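Sequenced RNA came from sorted stage 0 cells, 3 pools per genotype, with 1 count column each. The authors aligned reads with HISAT2 2.1.0 to GRCm38 without regard to strand and counted those over exons with featureCounts (Subread 1.4.4) and Ensembl annotation, keeping mapping qualities from 10 up. The deposited counts are whole reads per gene symbol, unfiltered and not normalized. The labels name the SMART-Seq v4 kit and the study's methods a SEQR kit, and which was used is not settled here. The titles spell the mutant SGK, and groups were taken from the genotype label. A second deposited table holds the authors' own DESeq2 comparison (means, fold changes, p-values) and was not used.

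Tests ran on these counts in edgeR 4.0.16 under R 4.3.3 (filterByExpr, TMM, quasi-likelihood F test, all 6 libraries, no covariate, Benjamini-Hochberg over 12312 genes), DESeq2 1.42.0 and limma 3.58.1. Calls needed an adjusted p under 0.1 with a fold change of 1.5 or more. CPM use TMM-scaled totals over the genes that passed the filter on low counts. Unscaled totals over all genes were 37176544 to 43115544 reads. Standard errors were obtained as |log2 fold change| divided by the root of F. Exon lengths, positions and overlaps came from GENCODE M21 (GRCm38) by symbol, and start regions from RefSeq (9 of 9 genes matched). Levels per kilobase used the union of exons and, for log2 values, a pseudocount of 0.001, and pattern distances one of 0.1 CPM. Without molecular identifiers PCR copies are not separate molecules, so floors cover counting error only.

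The 9 genes, the lists and the tests were chosen with earlier results of these data known. Named genes are the 9 members, listed genes with an unadjusted p under 0.05 (at most 10), listed genes at 0 reads in at least 5 libraries, and the 3 genes most like Zap70 and Syk. Of 3 kinase pairs tested, 1 is not reported here, nor are some genes the rule names. Labels state 3 independent samples per genotype. Alternatives were other tests, scalings and filters, blocks, a covariate, other thresholds and each library left out.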

Additional observations from a re-analysis of the deposited data

How the results depend on the processing

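The count of genes called by edgeR was 0 (671 at an unadjusted p under 0.05), and it moved to 370 with DESeq2 without shrinkage (177 higher in SKG, 193 in BALB/c), 231 with DESeq2 with shrunken fold changes, 2 without a filter on low counts and 1 with a stricter filter, while it was 0 with limma-voom, other scalings, both blocks, the covariate, other thresholds and each library left out. Of the 9 members, 1 was called in 1 setting, Plcg1 with DESeq2 without shrinkage (log2 0.66), and 0 in all others. Syk was not tested under the stricter filter. In 129 of 143 cases a member's direction and side of the threshold stayed. The log2 fold change of Txk, -0.02, reversed to 0.00389 with DESeq2 without shrinkage, 0.00366 with shrinkage, 0.00865 with limma-voom, 0.000145 with RLE size factors, 0.00501 with the title number as a replicate block and 0.0566 with the library number as a block, and with a library left out ran from -0.24 to 0.21. That of Syk ran from -5.14 (without SKG replicate 2) to 1.33 (without BALB/c replicate 2) and was -1.95 with limma-voom, -0.64 with the title block, -0.81 with the library-number block and -0.03 with shrinkage. That of Lck ran from -0.00513 to 0.33. The cause was not tested, and each of these values lies inside the 95% interval of its gene. The median log2 fold change of all genes in the test was 0.118 with DESeq2 without shrinkage, against -0.02. Deviations from the group means correlated at -0.0657 to 0.00991 between libraries of the same title number and at -0.0261 and -0.0192 for the same library number. With 3 libraries per genotype, such values cannot show whether libraries of the same number were prepared together. With the title number and the library number as blocks, 585 and 443 genes had an unadjusted p under 0.05 and 0 were called. With a library left out, the difference in share (SKG minus BALB/c) ran from -0.372 to 0.308 percentage points for Syk and from -1.64 to 5.35 for Fyn, and was 0.217 and 2.84 from reads without length. The order of levels kept 6 of its 8 neighbour pairs with the longest transcript and 6 to 8 with a library left out, and the pairs that turned were Lcp2 and Lat, Fyn and Vav1, and Vav1 and Zap70. Genes of the 3 other lists with an unadjusted p under 0.05 numbered 4, with 2 under the library-number block, 4 or 5 in the other settings and 3 to 6 with a library left out. With Syk at 0 to 567 reads per library, only a very large difference in it could have been detected.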
